A study of Mus musculus with 12 samples.

Results

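A set of 10 genes that take part in building cartilage and bone was followed through mouse tumours driven by the EWSR1-ATF1 fusion of clear cell sarcoma, a soft tissue tumour. They were the transcription factor genes Sox9, Sox5, Sox6, Runx2 and Sp7, and the matrix or mineral genes Spp1 (osteopontin), Ibsp, Alpl, Comp and Mgp. The members were picked by symbol, with no threshold on their values, and all 10 were found among the 55536 genes of the deposited count table. The 5 translocation tumours carried HprtCre, Ewsr1-loxP and Atf1-loxP alleles, in which Cre from the Hprt locus recombines loxP sites in the mouse Ewsr1 and Atf1 genes. The 6 Rosa26 tumours carried the Rosa26-LSL-EWSR1-ATF1 allele, a fusion transgene in the Rosa26 locus behind a stop cassette that Cre removes; their labels name no Cre source. The control was 1 library of skeletal muscle labelled WT. No group had received a drug, tumours were frozen when the primary tumour made the animal unwell, and the labels give no ages. All groups were profiled by ribosome-depleted RNA sequencing of bulk tissue, so fewer cells of a type and less RNA per cell cannot be told apart.

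In the growing skeleton, Sox9 commits mesenchymal cells to cartilage and switches on cartilage collagen and aggrecan genes, with Sox5 and Sox6 as partners on the same genes. Runx2 and, downstream of it, Sp7 (osterix) commit cells to the osteoblast lineage. Osteoblasts then lay down a matrix that holds Spp1, a phosphoprotein that binds integrins and CD44, and Ibsp (bone sialoprotein), while the phosphatase Alpl frees phosphate for mineral. Comp is a thrombospondin family protein of cartilage and tendon matrix, and Mgp inhibits calcification of soft tissue. Osteopontin is also made by macrophages and osteoclasts.

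The promoters of Spp1, Ibsp and Runx2 are shown. Spp1 was chosen as the 1 member called between the tumour genotypes, and Ibsp because it lies beside Spp1 on chromosome 5. Runx2 was chosen because it encodes a factor whose letters were searched. Each line gives 300 bases from RefSeq on GRCm38.p6, 250 before to 50 after the annotated start, read 5′ to 3′ on the gene's strand. Capitals mark ACCACA, the core letters of Runx binding sites (TGTGGT on the other strand), or TGACG, the short form of the cAMP response element (CGTCA on the other strand), which ATF1 and its relatives bind. The windows are chr5:104434861-104435160 on the plus strand for Spp1, chr5:104299037-104299336 on the plus strand for Ibsp and chr17:44814578-44814877 on the minus strand for Runx2.
Spp1: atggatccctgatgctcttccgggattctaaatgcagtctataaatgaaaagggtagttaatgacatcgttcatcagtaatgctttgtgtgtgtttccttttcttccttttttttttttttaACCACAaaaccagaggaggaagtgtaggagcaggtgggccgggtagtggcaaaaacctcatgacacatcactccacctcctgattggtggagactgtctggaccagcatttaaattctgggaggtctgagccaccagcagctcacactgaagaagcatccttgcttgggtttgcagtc
Ibsp: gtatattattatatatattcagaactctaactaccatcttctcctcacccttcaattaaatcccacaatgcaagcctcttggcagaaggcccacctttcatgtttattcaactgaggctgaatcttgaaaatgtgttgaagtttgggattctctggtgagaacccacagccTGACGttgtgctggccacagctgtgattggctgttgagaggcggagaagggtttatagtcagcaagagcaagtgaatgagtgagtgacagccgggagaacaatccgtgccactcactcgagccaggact
Runx2: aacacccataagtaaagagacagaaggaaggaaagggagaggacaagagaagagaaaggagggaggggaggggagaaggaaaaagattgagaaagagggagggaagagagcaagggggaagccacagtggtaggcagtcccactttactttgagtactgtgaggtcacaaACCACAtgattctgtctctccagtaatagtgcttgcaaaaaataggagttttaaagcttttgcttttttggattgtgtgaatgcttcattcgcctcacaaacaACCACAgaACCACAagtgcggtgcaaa
The Spp1 window held 1 ACCACA, starting at base -128 from the annotated start, and no short element. The Ibsp window held 1 TGACG at -79 and no ACCACA. In the Runx2 window ACCACA occurred 3 times, once before the start and otherwise after it. The whole element TGACGTCA, which contains the short form, was in 0 of 13 windows of the 6 members with an entry (Spp1, Ibsp, Runx2, Alpl, Sox5 and Sox6). Sox9, Sp7, Comp and Mgp had no entry. Of 32851 promoter windows of the same length, 16.8% held ACCACA or its complement, 20.8% the short element and 1.79% the whole element. AACAAT or its complement was in 10.7%. These matches describe letters and not bound sites.

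Positions are those of GENCODE M21 on mm10. Spp1 (ENSMUSG00000029304) spans chr5:104435118-104441050 and Ibsp (ENSMUSG00000029306) spans chr5:104299171-104311469, both on the plus strand, 123649 bases apart, with Mepe as the only protein-coding gene between them. Sox9 (ENSMUSG00000000567) lies at chr11:112782224-112787760 on the plus strand. Sox5 (ENSMUSG00000041540) and Mgp (ENSMUSG00000030218) lie on the minus strand of chromosome 6, at chr6:143828425-144781977 and chr6:136872435-136875823. On the minus strand of their chromosomes lie also Sox6 (ENSMUSG00000051910, chr7:115470872-116038796), Runx2 (ENSMUSG00000039153, chr17:44495987-44814797), Sp7 (ENSMUSG00000060284, chr15:102356606-102367182) and Alpl (ENSMUSG00000028766, chr4:137741733-137796384). Comp (ENSMUSG00000031849) is on the plus strand at chr8:70373558-70382066. Exons of Sox5, Runx2 and Spp1 overlap those of Sox5os1, Runx2os1 and Gm42793, which held 0, 118 and 113 counts over all 12 libraries, against 2152, 7686 and 68901 counts for the members.

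Libraries held 2.96 to 21.2 M counts in the translocation tumours, 6.82 to 21.5 M in the Rosa26 tumours and 25.04 M in the muscle. Ribosomal-sequence genes made up 37.8% of translocation tumour 2 and 30.0% of Rosa26 tumour 4, with 1.34% to 7.38% elsewhere among the tumours. Levels are given as CPM, counts per M of a library size that was rescaled by edgeR's TMM method. The 12 skeletal muscle markers summed to 454100 CPM in the muscle library, the tissue its label gives. They summed to 71230 CPM in Rosa26 tumour 1, 6180 CPM in translocation tumour 2 and 4085 CPM in Rosa26 tumour 3. The other tumours held 13.4 to 243 CPM. Of the unscaled counts these markers made up 18.6% in the muscle library and 8.45% in Rosa26 tumour 1. The rescaling thus raised every CPM of the muscle library, and its CPM are not shares of its counts. Some titles share a number (translocation tumours 2 and 5, and translocation tumour 1 with the muscle) or nearly so (Rosa26 tumours 5 and 6), and the labels do not say whether samples came from separate animals. P-values therefore reflect only how these samples vary, and part of that variation may be technical. All levels below are CPM scaled over the 12 libraries by edgeR's TMM method, and the genotype log2 fold changes are from a fit of the 11 tumours.

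The genotype question set by the series title is how tumours with the translocation differ from tumours with the Rosa26 transgene. Spp1 was the 1 member that passed the test: it was higher in the translocation tumours. No member was called lower. Sox9 and Sox6 had lower means in the translocation tumours and did not pass. All 10 members entered the test, and 1 of 10 called higher stands against 1.14% of the 17021 genes tested, while 0 of 10 called lower stands against 1.56% (edgeR's quasi-likelihood test, adjusted p under 0.05). At an unadjusted p under 0.05 edgeR had 2 members lower, Sox9 and Sox6, where 10.4% of all genes tested were lower. DESeq2's Wald test called the same 2 lower, with 7.07% of all genes, and limma voom called 1, Sox9, with 8.31% of all genes. The library ranges of the genotypes overlapped for all 10 members, against 2.2% of genes with every translocation tumour higher and 3.12% with every one lower. The median log2 fold change was 0.70 over the members and 0.07 over all genes tested. Of the members 5 had positive and 5 negative values, so the median shows no common direction.

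**Figure D1:**
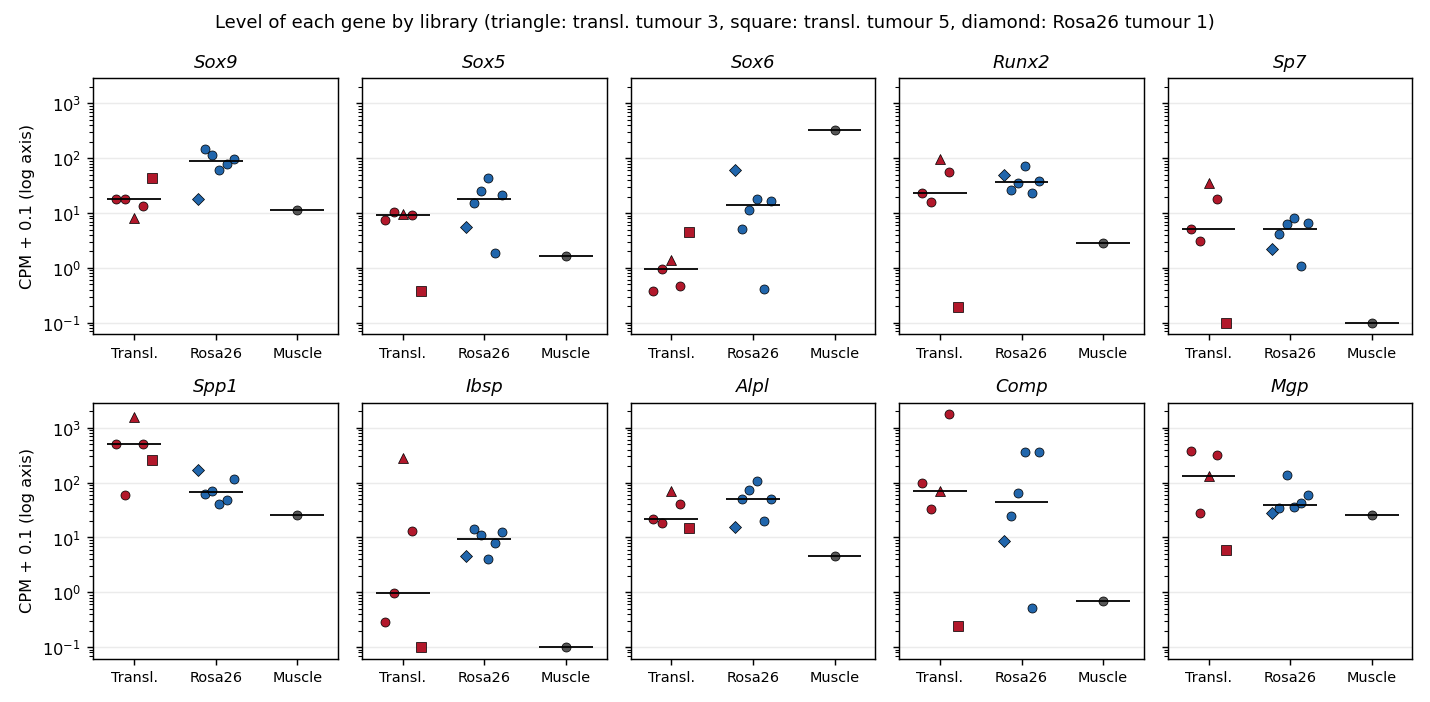
Each panel plots 1 member's level in each library as CPM + 0.1 on a log axis, for the 5 translocation tumours, 6 Rosa26 tumours and 1 muscle library, with a line at the group median. Translocation tumour 3 (triangle) is the highest tumour for Runx2, Sp7, Spp1 and Ibsp, and translocation tumour 5 (square) is the lowest for 7 members.

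Sox9, the cartilage commitment factor, stood at 17.7, 17.9, 8.15, 13.5 and 43.2 CPM in translocation tumours 1 to 5. In the Rosa26 tumours it ran from 17.8 to 150 CPM with a median of 87.6 CPM. The groups overlapped only through Rosa26 tumour 1 at the low end, and translocation tumour 5 was the highest of its own group. The mean was 20.1 ± 13.5 CPM (SD, n = 5) against 85.9 ± 45.3 CPM (SD, n = 6). This is -2.05 ± 0.54 (SE) as a log2 fold change, with an adjusted p of 0.0606 in edgeR's quasi-likelihood test. Without translocation tumour 5 the adjusted p was 0.0278, without Rosa26 tumour 1 it was 0.0293, and DESeq2's Wald test gave 0.00312. Over all 21 alternatives the adjusted p ranged from 0.00312 to 0.142, and the sign was kept in each.

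The partner genes Sox5 and Sox6 were low in most tumours. Sox5 was at 7.29, 10.5, 9.57, 9.01 and 0.279 CPM in translocation tumours 1 to 5 and at 1.76 to 42.9 CPM, median 18.3 CPM, in the Rosa26 tumours. Translocation tumour 5 lay below every other tumour, and the remaining translocation tumours fell inside the Rosa26 range. The log2 fold change of Sox5 was -1.32 ± 0.83 (SE), with an adjusted p of 0.345 in edgeR's test. Sox6 was at 0.288, 0.875, 1.30, 0.362 and 4.37 CPM in the translocation tumours and ran from 0.306 to 60.9 CPM, median 14.0 CPM, in the Rosa26 tumours. Rosa26 tumour 5 sat among the low translocation tumours. Its level rests on 8 counts, and those of translocation tumours 1, 2 and 4 on 3, 2 and 7 counts, too few to order them. The log2 fold change of Sox6 was -3.58 ± 1.10 (SE), with an adjusted p of 0.0826 in edgeR's test. The highest Sox6 level among the tumours was in Rosa26 tumour 1, the library with 71230 CPM of skeletal muscle markers, and skeletal muscle itself held 333 CPM of Sox6. Without that library the log2 fold change of Sox6 was -2.73, and without translocation tumour 5 it was -4.68.

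Runx2, the osteoblast commitment factor, was at 23.1, 16.2, 98.1, 57.0 and 0.0929 CPM in translocation tumours 1 to 5. In the Rosa26 tumours it held to 23.6 to 70.8 CPM, with a median of 36.8 CPM. Translocation tumour 3 was above all Rosa26 tumours, and tumours 1, 2 and 5 were below them all. The highest translocation level was 1055 times the lowest, a ratio that rests on 2 counts in tumour 5, and the highest Rosa26 level was 3.01 times the lowest. The group means, 38.9 ± 39.0 (SD, n = 5) and 40.7 ± 17.4 CPM (SD, n = 6), gave a log2 fold change of -0.03 ± 0.88 (SE) and an adjusted p of 0.987 in edgeR's test, and its sign changed in 9 of 21 alternatives.

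Sp7, the osteoblast factor that acts after Runx2, had the same highest tumour. Its levels were 4.99, 3.06, 35.6, 17.8 and 0 CPM in translocation tumours 1 to 5. The Rosa26 tumours ran from 0.995 to 8.22 CPM, with a median of 5.07 CPM. Translocation tumours 3 and 4 lay above every Rosa26 tumour, and translocation tumour 5 had 0 counts, which allows up to 0.139 CPM (3 counts, counting error only). Between genotypes Sp7 gave 1.44 ± 1.03 (SE) as a log2 fold change and an adjusted p of 0.414 in edgeR's test. That value was 0.52 without translocation tumour 3. With sex, read from the counts, as a covariate it was 0.30 ± 1.84 (SE).

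Spp1, which encodes the secreted phosphoprotein osteopontin, stood at 507, 60.4, 1564, 509 and 260 CPM in translocation tumours 1 to 5. In the Rosa26 tumours it ran from 39.9 to 167 CPM, with a median of 66.3 CPM. Of the 5 translocation tumours, 4 lay above all 6 Rosa26 tumours, and translocation tumour 2 lay within their range. The mean was 580 ± 581 CPM (SD, n = 5) against 83.9 ± 48.4 CPM (SD, n = 6). Spp1 was higher by a log2 fold change of 2.82 ± 0.68 (SE), 7.08-fold, with an adjusted p of 0.0491 in edgeR's quasi-likelihood test.

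That call of Spp1 is close to the threshold. It held in 8 of 21 alternatives, with adjusted p from 0.000616 to 0.129 over all of them, and the log2 fold change stayed positive in each. Without translocation tumour 3, the tumour with the most Spp1, the log2 fold change was 2.04 and the adjusted p from edgeR 0.0694. When single tumours were left out it held in 3 of 11 fits, those without translocation tumour 2, translocation tumour 5 or Rosa26 tumour 1. Leaving out translocation tumour 1, 3 or 4 or any of Rosa26 tumours 2 to 6 ended it. Macrophages also make osteopontin, and the summed level of 12 macrophage markers was 2854, 3743, 1255, 1652 and 669 CPM in translocation tumours 1 to 5 and 1003 to 2823 CPM in the Rosa26 tumours. With the macrophage list as a covariate the log2 fold change of Spp1 was 2.93 and the adjusted p from edgeR 0.0402. The part of macrophages in the Spp1 levels was not tested beyond this fit.

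**Figure D2:**
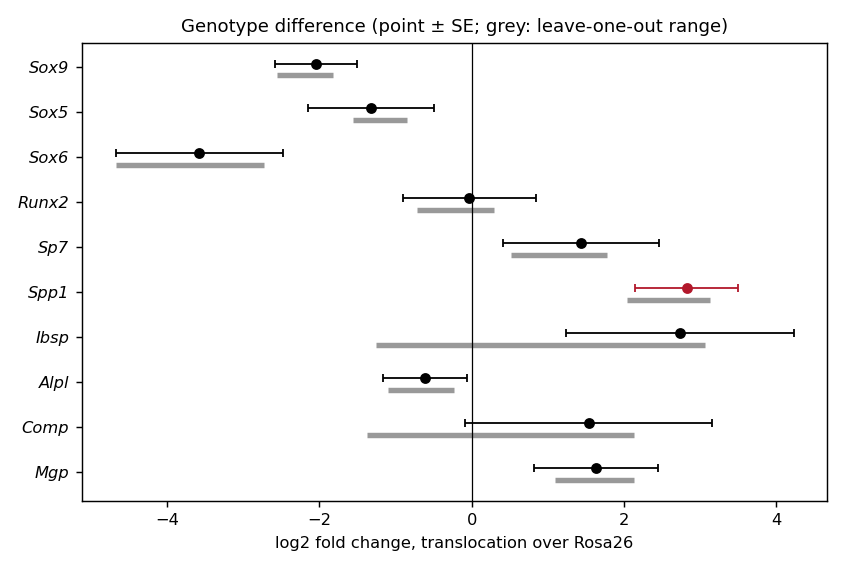
Points give the log2 fold change of each member, translocation over Rosa26 tumours, with its standard error, and grey bars the range when each of the 11 tumours was left out in turn. Spp1 (red) was the member with an adjusted p under 0.05; the grey bars of Runx2, Ibsp and Comp cross 0.

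Ibsp, a mineral-binding sialoprotein of bone, was carried by 1 tumour. Its levels were 0.192, 0.875, 280, 13.3 and 0 CPM in translocation tumours 1 to 5. The Rosa26 tumours ran from 4.02 to 14.1 CPM, with a median of 9.43 CPM. Translocation tumour 3 held 95.1% of its group's sum, tumour 4 fell inside the Rosa26 range, and the other translocation tumours were below it. For Ibsp the log2 fold change was 2.73 ± 1.495 (SE), with an adjusted p of 0.278 in edgeR's test, and it was -1.25 without translocation tumour 3.

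Alpl, tissue-nonspecific alkaline phosphatase, varied less. It was at 21.9, 18.4, 71.7, 40.2 and 14.8 CPM in translocation tumours 1 to 5 and at 15.3 to 108 CPM, median 49.7 CPM, in the Rosa26 tumours. Apart from translocation tumour 5, which was just under the lowest Rosa26 tumour, the translocation tumours fell inside the Rosa26 range. For Alpl the log2 fold change was -0.61 ± 0.55 (SE), with an adjusted p of 0.519 in edgeR's test.

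Comp, the cartilage and tendon matrix protein, had the widest range in both genotypes, as a ratio of the highest to the lowest level over the members with no tumour at 0. Its levels were 100, 32.4, 70.4, 1752 and 0.139 CPM in translocation tumours 1 to 5, and 8.60, 24.7, 65.5, 355, 0.421 and 364 CPM in Rosa26 tumours 1 to 6. Translocation tumour 4 was the highest tumour of all, with 89.6% of its group's sum. Rosa26 tumours 5 and 6, whose titles differ in the last digit alone, stood at opposite ends of their group. For Comp the log2 fold change was 1.53 ± 1.62 (SE), with an adjusted p of 0.594 in edgeR's test, and it was -1.38 without translocation tumour 4. The summed level of 12 fibroblast and tendon markers was 2004, 3113, 4341, 10600 and 338 CPM in translocation tumours 1 to 5. It was 2323, 7343, 6727, 21100, 5850 and 12420 CPM in Rosa26 tumours 1 to 6. Translocation tumour 4 had the largest sum and the most Comp of its group, and translocation tumour 5 the smallest sum and the least Comp. Rosa26 tumours 4 and 6 had the largest sums and the most Comp of their group. Both had larger sums than translocation tumour 4 and less Comp. Rosa26 tumour 5 had a larger sum than translocation tumours 1 to 3 and less Comp. The part of these cells in the Comp levels was not tested.

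Mgp, the inhibitor of soft tissue calcification, was at 379, 28.0, 130, 321 and 5.85 CPM in translocation tumours 1 to 5. In the Rosa26 tumours it ran from 28.2 to 140 CPM, with a median of 39.7 CPM. Translocation tumours 1 and 4 were above all Rosa26 tumours, tumours 2 and 5 were below them all, and tumour 3 fell within. For Mgp the log2 fold change was 1.63 ± 0.82 (SE), with an adjusted p of 0.237 in edgeR's test.

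Read by tumour, the members Runx2, Sp7, Spp1 and Ibsp were each highest in translocation tumour 3, which ranked 3 of 11 for Alpl. The same tumour was last of 11 for Sox9. Of the 21 other bone matrix and mineral genes, 18 reached 1 CPM in a tumour. Tumour 3 was the highest for 4 of those 18, against 5 for Rosa26 tumour 4 and 3 for translocation tumour 4. The 4 were Dmp1 (20.6 CPM, 8.41 times the next tumour), Phex (9.86 CPM) and Omd (10.02 CPM), genes of osteocytes and late osteoblasts, and Ifitm5 (3.17 CPM), an osteoblast membrane protein. For other genes of the list it was not: it ranked 3 for Bglap, 6 for Col1a2 and Sparc, 7 for Col1a1 (2583 CPM) and 9 for Enpp1. It had the highest Tnfsf11 (RANKL, the cytokine that drives osteoclast formation) at 192 CPM, 3.66 times the next tumour, and the highest Mmp9, a protease abundant in osteoclasts, at 370 CPM, 12.5 times the next. Its osteoclast marker sum was 687 CPM, of which Mmp9 made up 370 CPM, against 42.9 to 629 CPM in the other translocation tumours and 175 to 285 CPM in the Rosa26 tumours. Without Mmp9 the sum was 317 CPM in tumour 3 and 626 CPM in translocation tumour 4. Acp5 and Ctsk, enzymes of osteoclasts, were highest in translocation tumour 4, at 120 and 432 CPM, against 74.3 and 160 CPM in tumour 3. Of the 7 osteoclast genes that reached 1 CPM, tumour 3 was the highest for 1, Mmp9. Calcr, the calcitonin receptor of osteoclasts, stayed under 1 CPM in every tumour. The part of osteoclasts in these levels was not tested. The genes of this paragraph outside the 10 members were chosen after their values were seen.

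Translocation tumour 5 showed another profile. It was last of 11 tumours for Sox5, Runx2, Sp7, Ibsp, Alpl, Comp and Mgp, and yet had the highest Sox9 and Sox6 of its group and Spp1 above every Rosa26 tumour. It also held 504 CPM of Col2a1, the main cartilage collagen gene, and 230 CPM of Col9a3, where the other translocation tumours had at most 2.62 CPM of Col2a1 and 1.15 CPM of Col9a3. Acan, the aggrecan gene, was at 91.7 CPM in tumour 5 and at most 13.2 CPM in the other translocation tumours, but at 14.4 to 1553 CPM in the Rosa26 tumours. Tumour 5 was the highest of the 11 tumours for 3 of the 17 cartilage matrix genes that reached 1 CPM. It was the lowest for Col11a2 (2.88 CPM), Fmod (0.604 CPM), Hapln1 (0.0929 CPM), Matn4 (0.465 CPM), Col27a1 (5.07 CPM) and Prg4 (0 CPM). Hapln1 in tumour 5 and in translocation tumour 1 (0.0959 CPM) lay under the level of 3 counts, 0.139 and 0.288 CPM. Prg4 in translocation tumour 2 (0.875 CPM) also lay under that level, 1.31 CPM there. The order of these tumours for the 2 genes is therefore not resolved. Sox8, a relative of Sox9, reached 87.0 CPM and Bmp7, a bone morphogenetic protein, 195 CPM in tumour 5, each the highest of all tumours. These genes too were chosen after their values were seen.

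**Figure D3:**
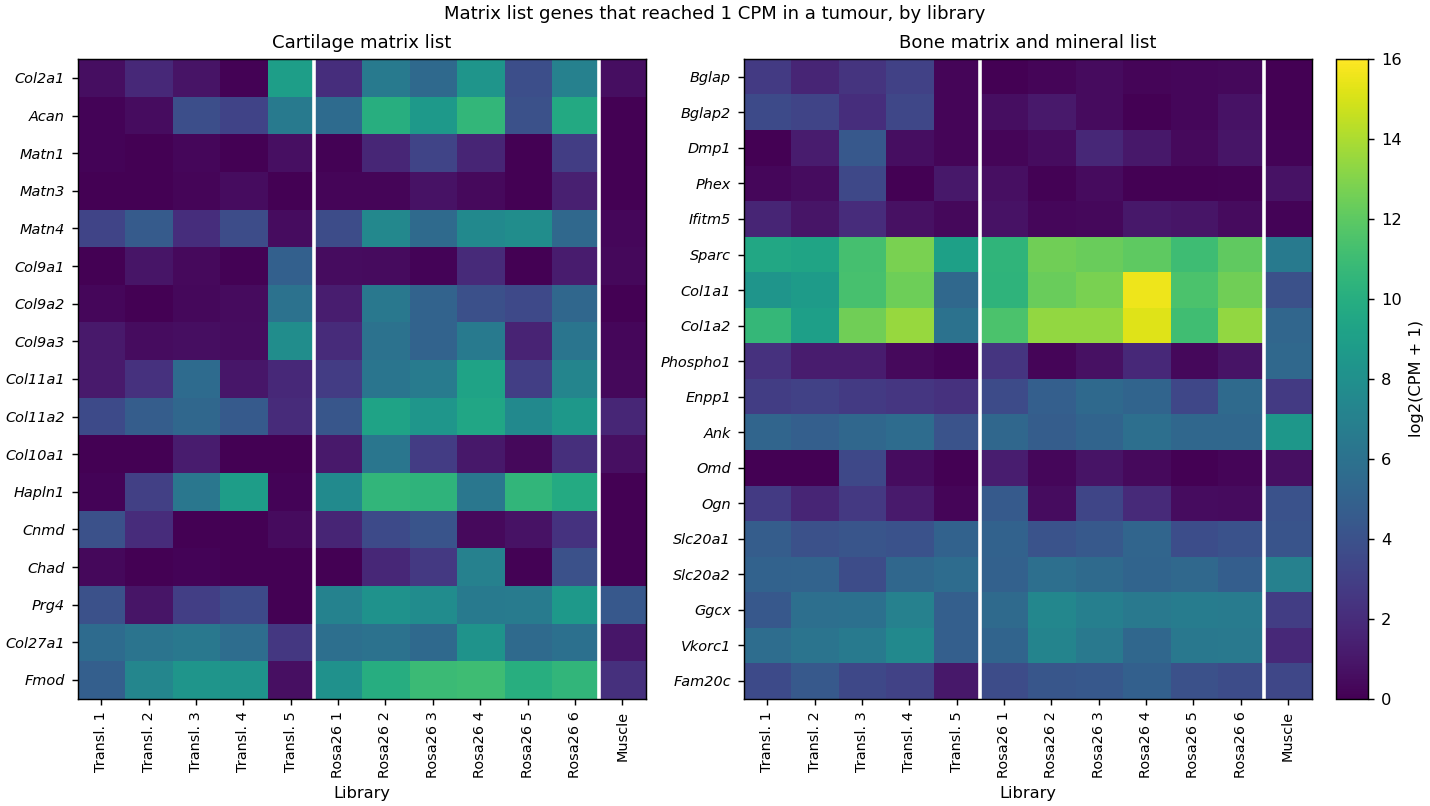
Colours give log2(CPM + 1) of the genes of the cartilage matrix list (17 of 20) and of the bone matrix and mineral list (18 of 21) that reached 1 CPM in a tumour, with 1 column per library. The cartilage genes are brighter in most Rosa26 tumours and in translocation tumour 5 for Col2a1, Col9a1, Col9a2 and Col9a3, and Dmp1, Phex and Omd stand out in translocation tumour 3.

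Of the cartilage matrix genes, 13 of 20 passed the filter, 0 were called higher and 2 were called lower in the translocation tumours by edgeR. At an unadjusted p under 0.05 in edgeR, 0 were higher and 7 lower. DESeq2 called 0 higher and 6 lower, and voom 0 and 7. Of all genes tested, edgeR called 1.14% higher and 1.56% lower, and at the unadjusted p the shares were 14.3% and 10.4%. The shares were 7.26% and 7.07% by DESeq2 and 7.41% and 8.31% by voom. Their median log2 fold change was -3.00, beside 0.07 over all genes tested, and 11 of the 13 values were negative. A gene of any list could pass the filter on counts in the tumours of 1 genotype alone. Passing on the Rosa26 tumours alone favours negative values, and passing on the translocation tumours alone favours positive ones. For example, Col9a2 reached 1.44 to 84.5 CPM in the Rosa26 tumours. In translocation tumours 1 to 4 it was at most 0.362 CPM, and in tumour 5 it was 65.3 CPM. The median and the signs are therefore not independent of that filter. The skeletal muscle markers also had a negative median, -3.06 with 11 of 11 values negative, as did the endothelial markers, at -1.20 with 7 of 8 negative. Col11a2, a fibril collagen of cartilage, fell from a mean of 372 ± 254 CPM (SD, n = 6) in the Rosa26 tumours to 20.4 ± 14.2 CPM (SD, n = 5) in the translocation tumours. Its log2 fold change was -4.16 ± 0.88 (SE), with an adjusted p of 0.0331 in edgeR's test, a call lost in 8 of 21 alternatives. Prg4, the joint lubricant lubricin, fell by 4.89 ± 1.08 (SE) on the log2 scale, from 205 to 6.58 CPM, with an adjusted p of 0.0382, and all 5 translocation tumours (0 to 14.4 CPM) lay below all Rosa26 tumours (92.2 to 402 CPM); the call was lost in 11 of 21 alternatives. Matn4, a matrilin, had a log2 fold change of -3.60 and an adjusted p of 0.0624. When single tumours were left out, the number called lower ran from 0 to 6: it was 6 without translocation tumour 5 and 0 without translocation tumour 1 or 4 or Rosa26 tumour 3, 4, 5 or 6. The summed level of the list was 128, 299, 599, 889 and 933 CPM in translocation tumours 1 to 5, and 760 CPM in Rosa26 tumour 1 against 3137 to 6165 CPM in the other Rosa26 tumours.

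Of the bone matrix and mineral genes, 15 of 21 were tested, 1 was higher and 1 was lower, with a median log2 fold change of -0.19. Of all genes tested, 1.14% were called higher and 1.56% lower. Enpp1, which makes the mineral inhibitor pyrophosphate, fell by 2.30 ± 0.44 (SE) on the log2 scale, from 28.4 to 5.68 CPM, with an adjusted p of 0.0268 in edgeR's test. The call was lost in 4 of 21 alternatives, with an adjusted p of at most 0.0795: without translocation tumour 1, Rosa26 tumour 3 or Rosa26 tumour 6, and with translocation tumours 2 and 5 left out along with Rosa26 tumour 4. All 5 translocation tumours, at 3.95 to 7.44 CPM, lay below the lowest Rosa26 tumour at 9.65 CPM. Bglap2, an osteocalcin gene, rose by 3.73 ± 0.90 (SE) on the log2 scale, from 0.492 to 6.61 CPM, with an adjusted p of 0.0498, a call that 16 of 21 alternatives ended; it is nearly identical to Bglap, so reads may be split between them and the value is uncertain. The values of Col1a1, the main bone collagen gene, were 42.1 to 5602 CPM in the translocation tumours and 1355 to 49280 CPM in the Rosa26 tumours, with an adjusted p of 0.202.

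Other skeletal transcription factors gave 0 calls in either direction in edgeR's test among 17 of 20 tested, with a median log2 fold change of -0.12. Before adjustment 1 was higher and 1 lower at a p under 0.05; DESeq2 called 1 higher and voom 1 lower. The smallest adjusted p among them was 0.131, for Atf4, an osteoblast and stress response factor, at a log2 fold change of 0.70, followed by Msx2 (-1.70, adjusted p 0.173) and Dlx3 (-0.81, adjusted p 0.246), all from edgeR. Of the skeletal signals and receptors, 18 of 20 were tested, 0 were called higher and 2 lower by edgeR, with a median of -0.54. At an unadjusted p under 0.05 in edgeR, 0 were higher and 6 lower. DESeq2 called 0 and 5, and voom 0 and 4. For both lists of this paragraph the shares of all genes tested, higher and lower, were 1.14% and 1.56% as called by edgeR. They were 14.3% and 10.4% at the unadjusted p, 7.26% and 7.07% by DESeq2 and 7.41% and 8.31% by voom. Grem1, a secreted BMP antagonist, fell from 33.6 ± 21.3 to 1.27 ± 0.837 CPM (SD, n = 6 and 5), a log2 fold change of -4.83 ± 0.71 (SE) with an adjusted p of 0.0111 in edgeR's test, and it was called in all 21 alternatives. Every translocation tumour, at 0.649 to 2.62 CPM, was below every Rosa26 tumour, at 3.70 to 62.2 CPM. Nog, another BMP antagonist, fell by 2.57 ± 0.57 (SE) on the log2 scale, from 24.9 to 4.05 CPM, with an adjusted p of 0.0391, and lost its call in 10 of 21 alternatives. Bmpr1b, a BMP receptor, had a log2 fold change of -4.57 with an adjusted p of 0.0629.

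Receptors that bind osteopontin gave 0 calls in edgeR's test among 10 tested, with a median log2 fold change of -0.99. Before adjustment 0 were higher and 4 lower at a p under 0.05 in edgeR. DESeq2 called 1 lower and voom 0. Of all genes tested, 10.4% were lower at that p, 7.07% by DESeq2 and 8.31% by voom. The smallest adjusted p was 0.0929, for the integrin subunit Itga4, at a log2 fold change of -2.14; Itga9 (-1.09) and Itgb6 (-3.06) had adjusted p of 0.171 and 0.173 in edgeR's test. Of the thrombospondin relatives of Comp, 0 of 4 were called by edgeR, DESeq2 or voom, and 1 was lower at an unadjusted p under 0.05. They had a median log2 fold change of -0.63, with log2 fold changes of -1.45 for Thbs1, -1.17 for Thbs4 and 0.15 for Thbs3 and adjusted p of 0.159, 0.522 and 0.883 in edgeR's test.

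Markers of other cells were set beside these genes. Of the macrophage, smooth muscle and pericyte, endothelial, skeletal muscle, and neural crest and Schwann cell lists, 0 genes were called between the genotypes by edgeR, among 12, 10, 8, 11 and 6 tested. At an unadjusted p under 0.05 there were 1 higher and 0 lower macrophage genes, 2 and 2 smooth muscle genes, 1 and 5 endothelial genes, 0 and 0 skeletal muscle genes and 2 and 0 neural crest genes. DESeq2 called 0, 1, 3, 0 and 1 genes of these lists, and voom called 1 endothelial and 1 neural crest gene. Shares of all genes tested, higher and lower, were 14.3% and 10.4% at the unadjusted p. They were 7.26% and 7.07% by DESeq2 and 7.41% and 8.31% by voom. The median log2 fold changes were 0.35 for the macrophage, -0.57 for the smooth muscle, -1.20 for the endothelial, -3.06 for the skeletal muscle and 0.26 for the neural crest list, with 2 of 12, 7 of 10, 7 of 8, 11 of 11 and 3 of 6 values negative. Of 6 osteoclast genes tested edgeR called 1 lower (Ocstamp), and of 11 fibroblast and tendon genes 1 lower (Fbn1). It called 0 of either list higher. Of all genes tested it called 1.14% higher and 1.56% lower. At an unadjusted p under 0.05 there were 1 higher and 2 lower osteoclast genes, and 0 and 1 fibroblast and tendon genes. DESeq2 and voom each called 2 osteoclast genes and 1 fibroblast and tendon gene lower, and 0 higher. The fibroblast and tendon sum ran from 338 to 10600 CPM in the translocation tumours and from 2323 to 21100 CPM in the Rosa26 tumours. Of the 10 neural crest and Schwann cell markers, the lineage clear cell sarcoma is compared with, Foxd3 was under 1 CPM in every tumour, and the list summed to 31.5 to 108 CPM in the translocation and 23.4 to 40.7 CPM in the Rosa26 tumours. The part of these cells in the levels of Sox9 and of the cartilage genes was not tested.

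**Figure D4:**
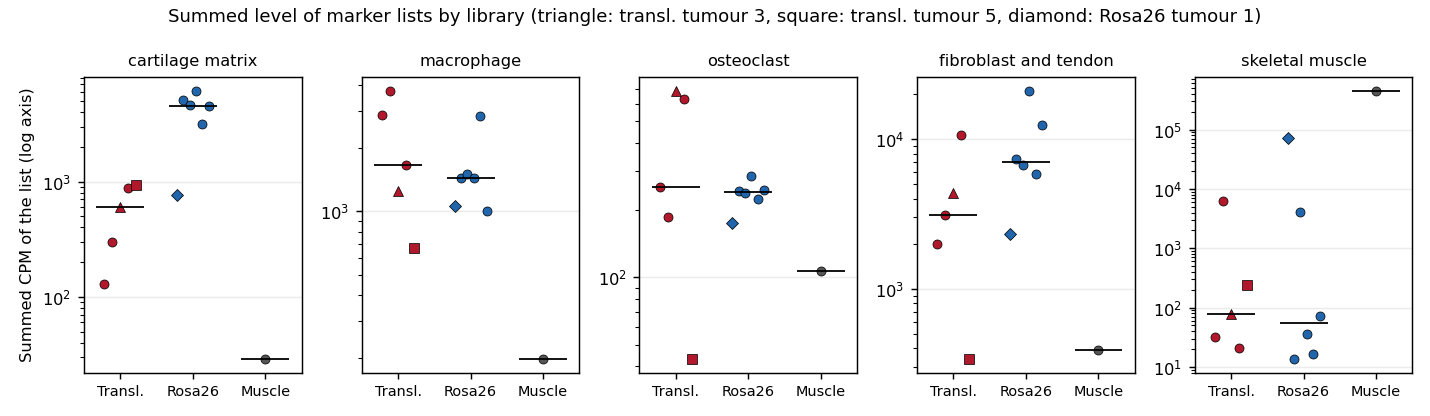
Each panel plots the summed CPM of 1 list in each library on a log axis, with a line at the group median and panels on scales of their own. The cartilage list is at 933 CPM or less in the translocation tumours and in Rosa26 tumour 1, and at 3137 CPM or more in the other Rosa26 tumours; the skeletal muscle list is highest among tumours in Rosa26 tumour 1.

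Levels were compared between genes as CPM per kilobase of merged exons. On that scale Spp1 was the highest member in both tumour groups, at a level of 352 ± 353 (SD, n = 5) in the translocation and 50.9 ± 29.4 (SD, n = 6) in the Rosa26 tumours. Mgp came next, at levels of 145 ± 143 and 48.0 ± 35.6 CPM per kilobase, and Comp followed at 132 ± 257 and 46.0 ± 58.7 CPM per kilobase. In the Rosa26 tumours Sox9 came after Comp at a level of 20.8 ± 10.96 CPM per kilobase, then Alpl, Runx2, Ibsp, Sp7, Sox5 and Sox6. The translocation tumours ran on from Comp through Ibsp, Alpl, Sox9, Runx2, Sp7 and Sox5 to Sox6. Neighbours in each order differed by less than the larger of their SDs, except Ibsp and Sp7 in the Rosa26 tumours and Sox5 and Sox6 in the translocation tumours. In muscle the order opened with Sox6, at a level of 22.5 CPM per kilobase, followed by Mgp at 21.6 and Spp1 at 15.6.

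Set against the muscle library, Sox6 was the 1 member called, and it was lower in both tumour groups. In muscle, where Sox6 helps to set fast fibre identity, it stood at 333 CPM, above every tumour. The log2 fold change was -7.77 ± 1.46 (SE) in the translocation tumours, with an adjusted p of 0.00535 in edgeR's quasi-likelihood test, and it was called in all 16 alternatives. In the Rosa26 tumours it was -4.16 ± 1.30 (SE) with an adjusted p of 0.0473, a call lost in 8 of 16 alternatives, among them the fits without translocation tumour 1, 2 or 3 or Rosa26 tumour 2, 3, 4 or 6. Calls against muscle also needed a log2 fold change past 1 in size. For the translocation tumours 0 of 10 members were called higher, against 3.95% of 22184 genes, and 1 of 10 lower, against 8.46%. For the Rosa26 tumours the counts were again 0 and 1 of 10, against 5.51% and 10.5%. At an unadjusted p under 0.05 edgeR had 3 members higher for the translocation and 2 for the Rosa26 tumours, where 14.5% and 16.2% of all genes tested were higher. DESeq2 called 4 and 5 members higher, with 12.1% and 14.4% of all genes. Both comparisons share the 1 muscle library, which was assumed to vary like the tumours, so they were not compared.

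The other 9 members had higher means in both tumour groups than in muscle without passing the test. Spp1 was at 25.8 CPM in muscle, below all 11 tumours, with log2 fold changes of 4.49 ± 1.63 (SE, adjusted p 0.0911) for the translocation and 1.70 ± 1.33 (SE, adjusted p 0.375) for the Rosa26 tumours in edgeR's test. Alpl, at 4.59 CPM in muscle, was likewise below all 11 tumours, with adjusted p of 0.142 and 0.0791. Runx2 at 2.73 CPM and Sox5 at 1.56 CPM in muscle were exceeded by every tumour except translocation tumour 5. Sox9 at 11.1 CPM was exceeded by every tumour except translocation tumour 3, and Mgp at 25.6 CPM by every tumour except translocation tumour 5. Comp, at 0.586 CPM in muscle, was lower in translocation tumour 5 and Rosa26 tumour 5 and higher in the rest. Sp7 and Ibsp had 0 counts in muscle, where 3 counts would be 0.293 CPM. Against that floor the translocation mean was at least 41.9-fold higher for Sp7 and at least 201-fold higher for Ibsp. The Rosa26 mean was at least 16-fold and 30.6-fold higher. Translocation tumour 3 held 58.0% of its group's Sp7 sum and 95.1% of its Ibsp sum, so these translocation means do not describe each tumour. Ibsp in translocation tumours 1 and 5 (0.192 and 0 CPM) and Sp7 in translocation tumour 5 (0 CPM) lay under the muscle floor. The median log2 fold change of the members was 3.35 for the translocation and 3.53 for the Rosa26 tumours, beside 0.74 and 0.64 over all genes tested. Both medians were the same with Sp7 and Ibsp set to their floor.

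For 4 members the genes with the most similar profile were sought over the 11 tumours, by the root mean square difference of centred log2 CPM, among 11468 genes at a mean of at least 5 CPM. Closest to Spp1 were Stxbp6, Pla2g4a and Klhl5, at differences of 0.686, 0.723 and 0.859 log2 units, where the Spp1 profile itself had a root mean square of 1.63. Closest to Runx2, whose own root mean square was 2.27, was Prrx1, a limb mesenchyme factor, at 0.496, ahead of Col23a1 at 0.637 and Mamstr at 0.701. Sox9, with 1.36, was most like Kank1 (0.541), Inhbb (0.549) and March9 (0.583). Mgp, with 1.66, was most like the cathepsin gene Ctsk (0.788), then Steap4 and Gstt1 (both 0.861). The profiles share their libraries and depths, and no test was made.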

How the data were processed

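RNA was measured in 5 translocation tumours, 6 Rosa26 tumours and 1 muscle. The deposited table holds whole-number counts per Ensembl gene, made by the authors and not normalized. Tools listed in the submitters' processing notes are STAR 2.7.5a, cutadapt, RSEM, featureCounts and DESeq2, and the build is mm10, with no roles given; per the labels' protocols the kit was stranded and ribosome-depleted. Whether strand was used in counting is not given in the sources used here. A gene and its antisense partner may share reads.

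Groups followed the genotype labels; replicate numbers follow sample order and pair nothing. Symbols came from GENCODE M21, which named 55450 of 55536 identifiers, and promoters from RefSeq tables on GRCm38.p6. edgeR 4.0.16 in R 4.3.3 was used with TMM scaling, filterByExpr (minimum count 10), robust quasi-likelihood tests and Benjamini-Hochberg adjustment over all genes tested, at 0.05. Levels are CPM computed from the counts. On simulated counts of 16706 genes the genotype test recovered 79% of 100 genes changed 8-fold and 98% of 100 changed 32-fold. There were 6 false calls among the unchanged genes. The changed genes were drawn from those above a minimum mean level. Libraries were drawn independently, without shared animals or admixed muscle, so these rates may not hold for the real tumours.

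Alternatives were the Wald test of DESeq2 1.42.0, its size factors, no filter, each tumour left out, translocation tumours 2 and 5 and Rosa26 tumour 4 left out together, and libraries with shared title numbers summed; the genotype comparison added voom (limma 3.58.1), the muscle kept in the fit, and sex, skeletal muscle or macrophage covariates. Sex was read from the counts. A library was taken as male where Xist had fewer counts than Ddx3y, Eif2s3y, Kdm5d and Uty summed. How sex was split between the genotypes is not given here. All 10 members were named, up to 3 called or smallest-p genes from each skeletal list, and 3 genes of most similar profile for 4 members. The members and lists were chosen with earlier results of these data known.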

Additional observations from a re-analysis of the deposited data

Results flagged for a closer look

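In 6 of the 20 combinations of a member with a tumour group, 1 tumour stood far from the rest by Dixon's test at its 95% critical value. The test was run on CPM without a log transform. Its chance rate of about 1 in 20 holds for normally distributed values, and skewed CPM can give more flags by chance. The number of flags is therefore no measure of an excess. Sox9 was 43.2 CPM in translocation tumour 5, against 8.15 to 17.9 CPM in the other translocation tumours. Sox6 in the same tumour was 4.37 CPM, against 0.288 to 1.30 CPM. Sox6 in Rosa26 tumour 1 was 60.9 CPM, against 0.306 to 17.8 CPM in the other Rosa26 tumours; that library also has the most skeletal muscle marker RNA of the tumours. Ibsp in translocation tumour 3 was 280 CPM, against 0 to 13.3 CPM. Comp in translocation tumour 4 was 1752 CPM, against 0.139 to 100 CPM. Mgp in Rosa26 tumour 3 was 140 CPM, against 28.2 to 59.3 CPM. The causes were not tested.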

How the results depend on the processing

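Between the genotypes, Spp1 was the 1 member called higher. That count was 0 with DESeq2 size factors, with no filter, with muscle kept in the fit and with a sex or skeletal muscle covariate, and 0 to 1 when each tumour was left out. Members called lower, 0 as reported, numbered 2 by the DESeq2 Wald test (Sox9 and Sox6) and 1 with voom, a sex covariate (Sox9 in both) or a macrophage covariate (Sox6), and 0 to 1 when each tumour was left out. Against muscle, members higher in the translocation tumours, 0 as reported, numbered 4 by the DESeq2 Wald test, 3 without translocation tumours 2 and 5 and Rosa26 tumour 4, 1 with summed libraries and 0 to 2 when each tumour was left out. Those higher in the Rosa26 tumours, also 0, numbered 5 by the DESeq2 Wald test, 2 without the same 3 libraries, and 0 to 3 when each tumour was left out. Sox6, lower in the Rosa26 tumours, was not called (0) with no filter, and 0 to 1 members were called lower when each tumour was left out. The sign of the genotype log2 fold change turned for Runx2 (0.81 without the 3 libraries, 0.10 with summed libraries, 0.25 with voom, 0.13 with the macrophage covariate, -0.72 to 0.29 when each tumour was left out) and Alpl (0.14 without the 3 libraries). When each tumour was left out it ran from -1.25 to 3.07 for Ibsp, -1.38 to 2.13 for Comp, -2.38 to 0.30 for Thbs4 and -0.12 to 0.40 for Thbs3, which was -0.12 with the sex covariate. Over all genes, 194 higher and 266 lower calls became 1236 and 1203 by the DESeq2 Wald test, 1262 and 1415 with voom, 1551 and 983 with the sex covariate, 300 and 417 with the macrophage covariate, 97 and 192 with the skeletal muscle covariate, 115 and 245 with muscle kept in, 92 and 235 with no filter, and 40 and 101 with summed libraries. The causes were not tested. No paired analysis was possible because replicate numbers follow sample order. The depth of 2.96 M counts in translocation tumour 2 sets a floor of 1.31 CPM there (3 counts), above its levels of Sox6 and Ibsp.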
